A study of Mus musculus with 35 samples.

Results

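The kidneys described here are the controls of 2 mouse crosses, 5 from a cross that carries floxed Flcn and 3 from a cross that carries floxed Flcn and floxed Tfeb. These 8 control libraries were taken by their labels, control_Flcn and control_Flcn-Tfeb, out of 35 libraries in the series. They are called the Flcn controls and the Flcn/Tfeb controls below, and each library is named by its cross and replicate number. Every kidney came from a mouse labelled C57BL/6 at postnatal day 2, before cysts form in the Flcn mutant. In the study's mutants, Cre recombinase driven by the kidney-specific promoter of Cdh16 removes floxed Flcn alone, or floxed Flcn together with floxed Tfeb, from cells of the collecting duct, distal tubule and thick ascending limb. The study gives Flcn flox/flox as the genotype of control mice, and it does not give the alleles that the Flcn/Tfeb controls carried. The question is which genes differed between control kidneys of the 2 crosses, kidneys in which neither gene is described as deleted. The 9 mutant libraries of the same crosses, 5 labelled Flcn KO and 4 labelled Flcn/Tfeb DKO, are used beside the controls because they were not part of the control comparison.

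The kidney of a newborn mouse is still being built. Nephron progenitors at its edge are laid down as new nephrons while the branching tips of the ureteric tree grow beside them, and the older nephrons further in already express transporters of the proximal tubule, the loop of Henle and the distal tubule. Small differences in age within a day, in sex, in the amount of adrenal gland, fat or muscle taken with the kidney and in RNA quality can all alter such a profile, and whole-kidney RNA cannot tell fewer cells of a type from less RNA per cell. Flcn encodes folliculin, which together with its partners controls the Rag GTPases that hold TFEB and TFE3, transcription factors of lysosomal genes, in the cytoplasm.

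RNA was sequenced from its 3′ end, 1 read per transcript fragment, and reads were counted per gene. The 8 control libraries hold 1832651 to 3564751 counts on genes, so that a count of 0 allows a level of up to 0.842 to 1.64 CPM (counts relative to the library total), by counting error only. Proximal tubule markers summed to 6350 to 9320 CPM in every control and podocyte markers to 1970 to 3180 CPM, so that markers of the labelled tissue were present throughout. CPM of single genes are on TMM-scaled library sizes except where library totals are named. Transcripts encoded by the mitochondrial genome took 9.98%, 11.1%, 10.6%, 4.88% and 4.93% of counts in Flcn controls 1 to 5, and 9.16%, 10.7% and 4.47% in Flcn/Tfeb controls 1 to 3. The libraries thus fell to either side of 7% within both crosses, with Flcn controls 1 to 3 and Flcn/Tfeb controls 1 and 2 above it and the other 3 below. This division was made after the data were seen and corresponds to no label. All 9 mutant libraries were above 7%. Among the controls the share of reads that fell on no gene followed it, at 16.5% to 19.9% above and 9.06% to 11% below.

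Flcn/Tfeb control 3 stood apart from the other Flcn/Tfeb controls. On the first principal component, which holds 46.3% of the variance, it lay at 52 against -38.9 and -39.3 for the other two, beyond Flcn controls 4 and 5 at 27.1 and 32. On the second, which holds 13%, all 3 Flcn/Tfeb controls were at -15.9 or lower and all Flcn controls at 8.2 or higher. The share of reads that mapped to several places was 40% ± 2.54 (SD, n = 5) in the Flcn controls and 46% ± 4.26 (SD, n = 3) in the Flcn/Tfeb controls. It did not overlap above 7% (41.7% to 42% against 47.3% to 49.4%) or below it (36.7% and 37.8% against 41.2%), but over all 8 libraries the exact two-sided permutation test gave p = 0.14, adjusted p = 0.7 over 5 library measures. The smallest p that these 56 regroupings allow is 0.036. Library names in the labels share 1 number within each cross, so that cross, breeding line and any difference in handling cannot be told apart.

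**Figure D1:**
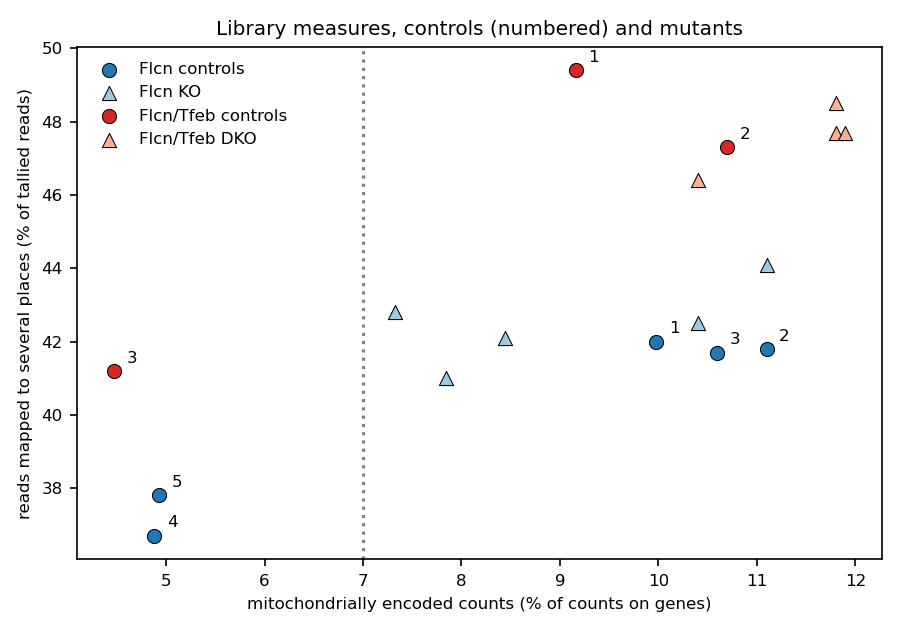
Share of counts from mitochondrially encoded genes (x axis, percent of counts on genes) against the share of reads mapped to several places (y axis, percent of tallied reads), 1 point per library, circles for controls and triangles for mutants, with the dotted line at 7%. Flcn controls 4 and 5 and Flcn/Tfeb control 3 lie to the left of the line, and on each side the Flcn/Tfeb controls lie above the Flcn controls.

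No gene was called between the 2 groups of controls. Of 12079 genes tested by edgeR's quasi-likelihood test, 0 had an adjusted p under 0.05 (0%), and the smallest adjusted p was 0.36. At an unadjusted p under 0.05 there were 883 (7.31%), of which 468 were higher (3.87%) and 415 lower (3.44%) in the Flcn/Tfeb controls. DESeq2 called 21 genes and the likelihood ratio test of edgeR 6. The 2 groups did not overlap in 682 genes (5.65%), with the Flcn/Tfeb controls above in 307 (2.54%) and below in 375 (3.1%). The median log2 difference over all genes was 0.033, and 54.2% of genes were above 0.

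The count also changed with the libraries in the fit. Without Flcn/Tfeb control 3 the same test called 162 of 12253 genes (1.32%), 89 higher and 73 lower, whereas leaving out any other control library gave 0. The replicates are labelled as biological, and p-values measure the spread between these kidneys.

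The 10 genes of smallest p in each direction whose groups did not overlap are described next. By edgeR's quasi-likelihood test none of them was called, DESeq2 called 9 of the 20 and the likelihood ratio test 6, and their separation is what chose them. Frrs1, a ferric reductase-like membrane protein, was at 112, 119, 122, 84.1 and 117 CPM in Flcn controls 1 to 5 and at 59.6, 42.4 and 53.6 CPM in Flcn/Tfeb controls 1 to 3. Its log2 difference was -1.09 (SE 0.19, edgeR adjusted p = 0.36), and every Flcn/Tfeb control lay below the lowest Flcn control. Frrs1 lies at chr3:116859464-116908177 on the + strand of GRCm38, and Akt2 at chr7:27591552-27640826 on the + strand. Akt2, a kinase of insulin signalling, was at 73.8, 71.6, 72.4, 74.3 and 75 CPM against 33.7, 38.8 and 44.2 CPM. The Flcn controls spanned a narrow range in Akt2, and the log2 difference was -0.91 (SE 0.16, edgeR adjusted p = 0.36).

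Synpo2, an actin-binding protein of the synaptopodin family, was at 25.1, 25.6, 26.1, 29.6 and 30.6 CPM against 12, 13.7 and 12.1 CPM. The Flcn/Tfeb controls were close to one another and all low, with a log2 difference of -1.13 (SE 0.2). Unc5c, a receptor of netrin, was at 66.9 to 78.2 CPM in the Flcn controls and at 34.4 to 43 CPM in the Flcn/Tfeb controls, a log2 difference of -0.89 (SE 0.16). Sparcl1, a matricellular protein, was at 219 to 303 CPM against 135 to 171 CPM, and Slc5a3, the sodium-coupled transporter of myo-inositol, at 116 to 150 CPM against 78.9 to 93.7 CPM. The remaining genes of this direction were Enpp4, an ectoenzyme that splits nucleotides (28.5 to 38.1 against 11.5 to 21.1 CPM), Plekhg3, a guanine nucleotide exchange factor (152 to 199 against 81.6 to 121 CPM), Sp110, a nuclear body protein (3.54 to 7.24 against 1.18 to 1.8 CPM), and Rnf157, a ubiquitin ligase (27.2 to 34.7 against 13.2 to 20.3 CPM). Sp110 had the widest log2 difference of the 10, -2.02 (SE 0.46), at the lowest level.

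Among the 10 genes higher in the Flcn/Tfeb controls, Hist1h1d, a linker histone, was at 6.27, 6.97, 11.4, 11.4 and 9.52 CPM in the Flcn controls and at 22.9, 32.8 and 22.7 CPM in the Flcn/Tfeb controls. All 3 Flcn/Tfeb controls were clear of the Flcn controls, with a log2 difference of 1.49 (SE 0.27, edgeR adjusted p = 0.36). Hist1h1d lies at chr13:23553262-23560686 on the + strand, and Crip1 at chr12:113146316-113153879 on the + strand. Crip1, a small LIM-domain protein, was at 61.3, 51.6, 56.6, 62.1 and 50 CPM against 95.7, 88.3 and 117 CPM, a log2 difference of 0.84 (SE 0.16, edgeR adjusted p = 0.44). Dcun1d5, which promotes neddylation of cullins, was at 36.7 to 48.8 CPM against 68.6 to 83.6 CPM, and Trip13, an ATPase of the mitotic checkpoint, at 13.6 to 18.9 CPM against 25.6 to 33.4 CPM. The levels of both were close among the Flcn controls.

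Nudt19, a hydrolase of coenzyme A in kidney peroxisomes, was at 35.4 to 45.5 CPM against 57.9 to 68 CPM, and Tesc, a calcium-binding protein, at 12.4 to 22.9 CPM against 25.1 to 38.9 CPM. Mapk15, an atypical kinase linked to cilia, was at 10.6, 11.6, 9.25, 6.57 and 6.25 CPM against 19.9, 30.4 and 14.1 CPM. In Mapk15 the level was lower in the libraries under 7% in both crosses. The others were the non-coding transcript 2900060B14Rik (215 to 443 against 595 to 669 CPM), the secreted protein gene C1qtnf4 (3.72 to 7.07 against 7.76 to 22.4 CPM) and Nipal2, of a family of magnesium transporters (3.26 to 4.65 against 8.54 to 12.6 CPM). Exons of Nipal2, Nudt19, Unc5c and Plekhg3 overlap an annotated antisense gene, those of Sp110 another gene on the opposite strand, those of Slc5a3 the gene Mrps6 and those of 2900060B14Rik a small nuclear RNA gene, so that reads of these pairs could have been shared.

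**Figure D2:**
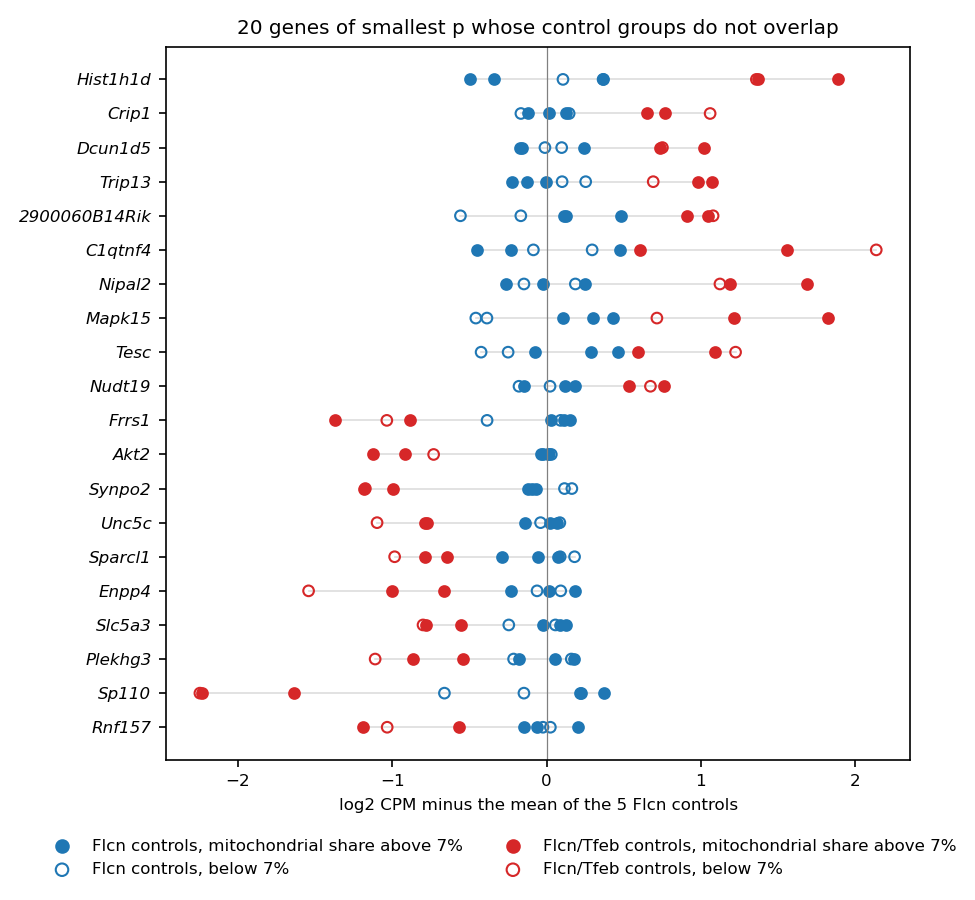
Log2 CPM of 20 genes in each control library, less the mean of the 5 Flcn controls (x axis, log2), 1 point per library, filled where the mitochondrial share was above 7% and open where it was below. For each gene all 3 Flcn/Tfeb controls lie on one side of the 5 Flcn controls, which is how the genes were chosen.

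The same 20 genes were read in the mutants, whose libraries had no part in choosing them. All 10 lower genes were also lower in the Flcn/Tfeb DKO libraries than in the Flcn KO libraries, with a median log2 difference of -0.5 against -0.92 in the controls. Of these, 6 were called by edgeR in the mutants, where 7.6% of the 12310 genes tested were called lower: Frrs1 at -0.57 (SE 0.16, edgeR adjusted p = 0.025), Akt2 at -0.48 (SE 0.14, edgeR adjusted p = 0.029), Synpo2 at -0.76 (SE 0.21, edgeR adjusted p = 0.022), Sparcl1 at -0.48, Slc5a3 at -0.84 and Plekhg3 at -0.63. Of the 10 higher genes 8 were above 0 in the mutants, with a median of 0.2 against 0.98, and 2 were called, Crip1 at 0.45 (SE 0.14, edgeR adjusted p = 0.036) and Mapk15 at 1.16 (SE 0.25, edgeR adjusted p = 0.0046), where 7.94% of all genes were called higher. Slc5a3 levels were 203, 160, 185, 161 and 114 CPM in Flcn KO 1 to 5 and 84, 85, 89.2 and 108 CPM in Flcn/Tfeb DKO 1 to 4, without overlap. The mutant groups differ in genotype as well as in cross, since by its label only the DKO has Tfeb deleted, and these 2 differences cannot be told apart there. Tfeb was at 7.43 to 13.7 CPM in Flcn KO and at 6.25 to 7.6 CPM in Flcn/Tfeb DKO (log2 difference -0.61, edgeR adjusted p = 0.11), and Flcn at 9.84 to 18 CPM and 10.5 to 16.2 CPM. Only part of the kidney's cells carry the Cre and 3′ reads may lie outside the deleted part, so these levels do not check the labels.

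The crosses were then compared within the libraries of like mitochondrial share. Among the 5 control libraries above 7% alone (Flcn controls 1 to 3 and Flcn/Tfeb controls 1 and 2), edgeR's quasi-likelihood test called 582 of 11762 genes (4.95%), 302 higher (2.57%) and 280 lower (2.38%). All 162 genes called without Flcn/Tfeb control 3 were among them, 27.8% of the 582. In the 3 libraries below 7%, where only 1 Flcn/Tfeb control stands against 2 Flcn controls and no test was made, 277 of the 582 had the same sign (47.6%), against 48.5% of all genes tested. In the mutants, 558 of the 574 that were tested there had the same sign (97.2%, against 70.5% of all genes), and 340 were called in the same direction (59.2%, against 14.4%). With the mitochondrial share as a covariate, the mutant comparison itself called 113 genes in place of 1914. The mutant groups differed in measures of the same kind: the share of reads mapped to several places was 41% to 44.1% in Flcn KO and 46.4% to 48.5% in Flcn/Tfeb DKO, Cyp21a1, an adrenal enzyme, was at 75.6, 14.5, 1.74 and 0 CPM on library totals in Flcn/Tfeb DKO 1 to 4 and at 0.354 CPM or less in Flcn KO, and the liver and skeletal muscle lists had medians of 1.8 and 3.34 with 7 of 12 and 7 of 8 tested members called higher, where 7.94% of all genes were. Among the 5 control libraries the liver list had the opposite sign, with a median of -1.22 that rested on Flcn/Tfeb control 2. The skeletal muscle, adipose tissue and adrenal lists had medians of 0.31, 0.76 and 0.19 there. Members above 0 were 4 of 5, 5 of 5 and 3 of 3, in that order. The 3 adrenal members tested, Akr1b7, Fdx1 and Scarb1, were at 12.7 CPM or more in every control, also where Cyp21a1 was at 0. Their median therefore does not measure whether adrenal tissue was present. In the mutants the adipose tissue and adrenal lists were at 0.92 and 0.25. The sexes were unevenly spread as well. Xist, the RNA of the inactive X chromosome, was on library totals at 765 CPM in Flcn KO 2 and at 0.592 CPM or less in the other Flcn KO libraries. It was at 1630, 1770, 0.697 and 1870 CPM in Flcn/Tfeb DKO 1 to 4. Among the 5 control libraries it was at 2150 CPM in Flcn/Tfeb control 2 and at 0.546 CPM or less in the others. The part of all these differences in the shared signs was not tested. This set of 5 libraries, 3 against 2, was chosen after the data were seen. In this set Hsd3b1 and Cyp11a1, of the adrenal list, were at 7.09 and 8.73 CPM in Flcn/Tfeb control 1 and at 30.2 and 16.4 CPM in Flcn/Tfeb control 2, on library totals, and at 0.88 and 1.32 CPM or less in the Flcn controls. Other genes of that list were not raised in Flcn/Tfeb control 1. Cyp21a1, Cyp11b1 and Chgb were at 0.546, 0 and 0 CPM there and at 83.6, 11.6 and 25.4 CPM in Flcn/Tfeb control 2. In this set the share of reads mapped to several places did not overlap either. The part of these genes and of this share in the result was not tested.

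**Figure D3:**
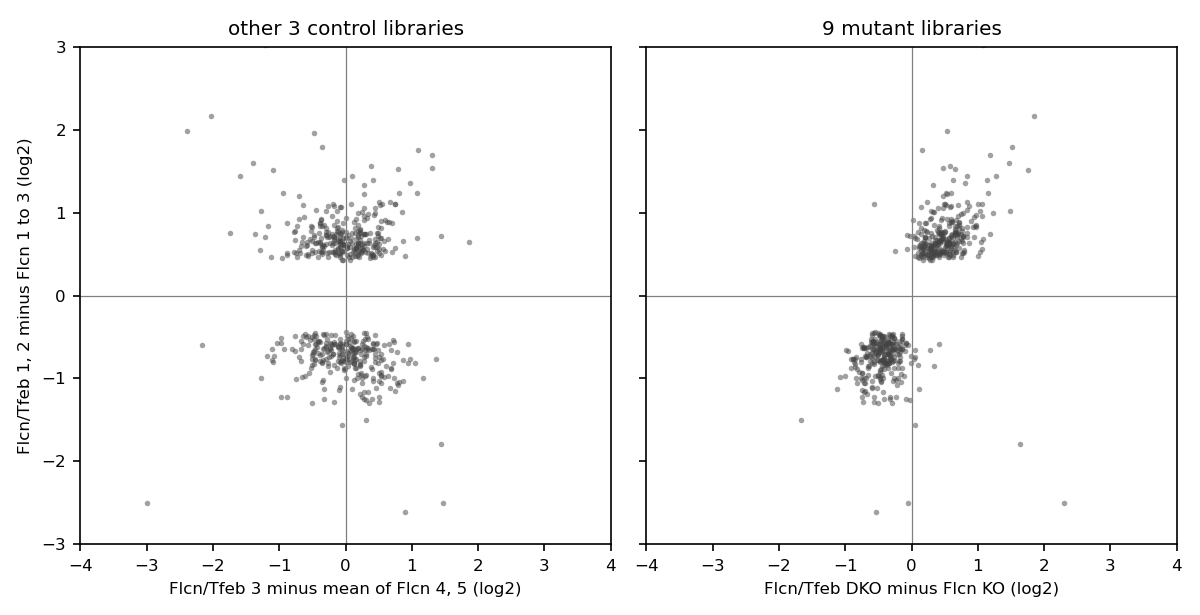
The 582 genes called among the 5 control libraries above 7%, with their log2 difference there (y axis) against the log2 difference in the other 3 control libraries (left, x axis) and in the mutants (right, x axis), Flcn/Tfeb minus Flcn in each, 1 point per gene. Axes stop at 4 and 3 log2 units, which leaves 8 genes outside the left panel and 1 outside the right, and 8 genes were not tested in the mutants. Points fill both sides of 0 on the left, and on the right nearly all lie in the quadrants of equal sign.

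Examples show the pattern in single libraries, and these genes were chosen after their values were seen. Podxl, the sialomucin that coats podocytes, was at 162, 136 and 149 CPM in Flcn controls 1 to 3 and at 70.4 and 65.7 CPM in Flcn/Tfeb controls 1 and 2, but at 189 and 150 CPM in Flcn controls 4 and 5 and at 158 CPM in Flcn/Tfeb control 3. The first 2 Flcn/Tfeb controls were low and the third was within the range of the Flcn controls. Here and below, log2 differences of single genes above 7% and in the mutants are fitted by edgeR, and those below 7% are of means of log2(CPM + 0.5). The log2 difference of Podxl was -1.14 among the 5 libraries (SE 0.15, edgeR adjusted p = 0.00044), -0.1 among the other 3 and -0.75 in the mutants (edgeR adjusted p = 0.0011). Among the 14 podocyte markers the median in the 5 libraries was -0.13 with 5 above 0, against -0.003 and 49.7% above 0 over all genes.

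Meg3, an imprinted non-coding RNA, was on library totals at 420, 278 and 210 CPM in Flcn controls 1 to 3 and at 979 and 676 CPM in Flcn/Tfeb controls 1 and 2, against 118, 85 and 48.1 CPM in Flcn controls 4 and 5 and Flcn/Tfeb control 3. Its order between the crosses was turned around below 7%, with a log2 difference of 1.52 above and -1.1 below, and 1.76 in the mutants. Sqstm1, the autophagy receptor p62, had a difference of -0.75 above, 0.45 below and -0.6 in the mutants. Hnf4a, a transcription factor of the proximal tubule, had -1.29, 0.51 and -0.56. Akt2 and Ccnd3, a D-type cyclin, were lower on both sides, Akt2 at -1.01 and -0.75 and Ccnd3 at -0.72 and -0.51.

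Of the lists with 5 or more members tested, genes of the cytosolic ribosome had the highest median. Their proteins build the translating ribosome and their short, abundant transcripts make up a large part of any 3′ library. They took 8.22%, 7.02%, 6.77%, 4.73% and 4.49% of counts in Flcn controls 1 to 5 and 10%, 9.12% and 4.47% in Flcn/Tfeb controls 1 to 3. The share was highest in Flcn/Tfeb controls 1 and 2 and lowest in the libraries below 7% of either cross, so that the groups overlapped. Of 47 genes, 44 were above 0 (54.2% of all genes were), with a median log2 difference of 0.36 (0.65 without Flcn/Tfeb control 3), and 0 were called, 2 having an unadjusted p under 0.05 (Rpl19 and Rpl10). Among the 5 libraries above 7%, 45 were above 0 with a median of 0.41, and 19 were called higher by edgeR where 2.57% of all genes were. In the 3 libraries below 7%, 21 of 47 were above 0 with a median of -0.04. In the mutants 46 of 47 were above 0 (50.2% of all genes were), the median was 0.59 and 37 were called higher, where 7.94% of all genes were.

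Rpl32, a protein of the large subunit, was at 2710, 2450, 2350, 1210 and 1130 CPM in the Flcn controls and at 4120, 3830 and 1750 CPM in the Flcn/Tfeb controls. In Rpl32 the Flcn/Tfeb controls were the higher on each side of 7% but the groups overlapped, and the log2 difference was 0.71 (SE 0.37, edgeR adjusted p = 0.73) over all 8 libraries. Rpl19 was at 133, 139, 150, 103 and 83.9 CPM against 190, 180 and 142 CPM. Rpl11 was at 934, 1350, 731, 1140 and 1010 CPM against 1850, 1790 and 954 CPM, the third Flcn/Tfeb control being within the Flcn range in both.

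Many promoters of ribosomal protein genes hold a core site of the ETS family of transcription factors. The letters CCGGAAG were searched on both strands in the 300 bases around the annotated start of each gene (250 before and 50 after), in RefSeq sequences of GRCm38.p6. They were found in 14 of the 35 ribosomal protein genes that have a window, out of 47 (40%), and in 2683 of all 27025 genes (9.93%). Windows of 30 bases are shown for 5 genes of the list. These have the smallest p between the controls among members that hold a match, with genes of 1 chromosome left out. The matched letters are in capitals (CTTCCGG is the same site on the other strand). A match is a description of the sequence and says nothing of whether a factor was bound.
Rpl19 (chr11:98026660-98026689, + strand): acttagcgtgaCTTCCGGctacccagagga
Rpl11 (chr4:136053369-136053398, - strand): aggccacggggCCGGAAGtctccctctctc
Rpl38 (chr11:114668549-114668578, + strand): gggttaaccgtCCGGAAGcggaagcctcgt
Rpl26 (chr11:68901559-68901588, + strand): aacttacagaaCCGGAAGtcgcgtgtagtt
Rpl6 (chr5:121204502-121204531, + strand): ttgcttatagaCCGGAAGccgctgccttag

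Over all 8 libraries the log2 differences of Rpl38, Rpl26 and Rpl6 were 0.53, 0.71 and 0.35, and that of Rpl19 0.49 and of Rpl11 0.56, none of them called. The mitochondrially encoded genes, which code for subunits of the respiratory chain, were above 0 in 10 of 11 with a median of 0.31, and of 0.62 without Flcn/Tfeb control 3. On either side of 7% the medians were 0.13 and 0.08, where the division was made on these same genes. In mt-Co3, a subunit of cytochrome c oxidase, the levels were 17.9, 20.9, 35.9, 8.59 and 10.4 CPM against 43.3, 53.7 and 13 CPM. The Flcn/Tfeb controls were again the higher on each side.

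**Figure D4:**
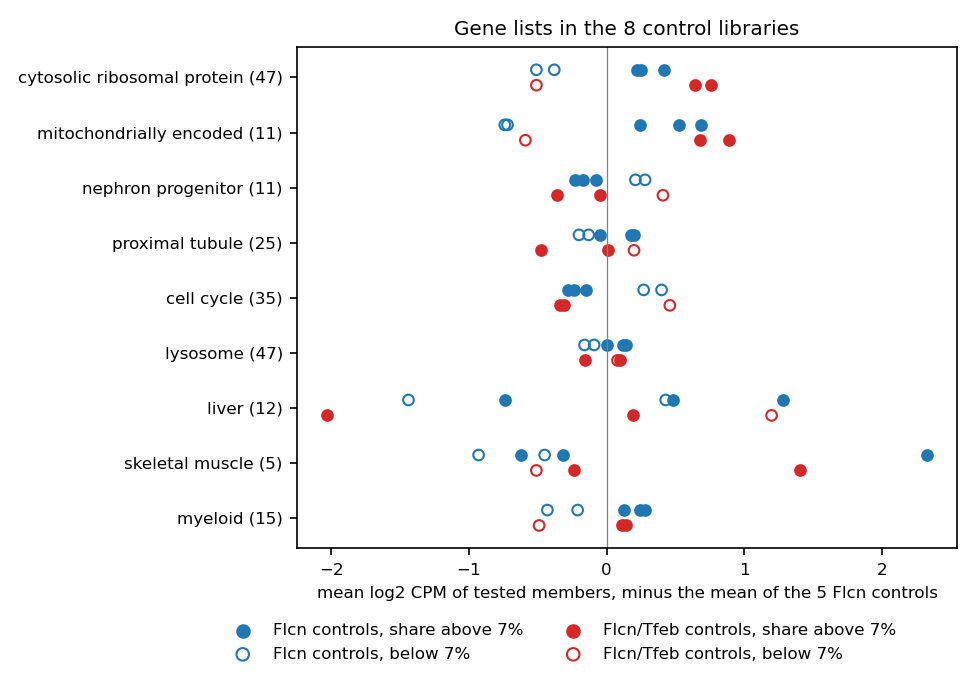
Mean log2 CPM of the tested members of 9 gene lists (number of members in brackets) in each control library, less the mean of the 5 Flcn controls (x axis, log2), filled above 7% and open below. Ribosomal protein scores run from -0.51 to 0.76, with Flcn/Tfeb controls 1 and 2 highest, and the cell cycle scores of Flcn/Tfeb controls 1 and 2 (-0.34 and -0.31) lie opposite that of Flcn/Tfeb control 3 (0.46).

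Genes of kidney cell types and of the stage of development were not called in either direction by edgeR's test over all 8 libraries. Of 528 members tested over 34 lists, 29 had an unadjusted p under 0.05 (5.49%, against 7.31% of all genes). Medians of the 16 cell type lists with 5 or more members tested lay between -0.39 and 0.23. The lowest, of skeletal muscle, ran from -1.51 without Flcn/Tfeb control 1 to 1.1 without Flcn control 1. The nephron progenitor list was at 0.23 with 7 of 11 above 0, the proximal tubule at -0.08 with 10 of 25, the podocyte at 0.01 with 7 of 14, the thick ascending limb at 0.03 with 6 of 11, the endothelium at -0.01 with 6 of 14 and the cell cycle at -0.04 with 17 of 35. Several of these medians rested on Flcn/Tfeb control 3. Without it, they were -0.12 for nephron progenitors, -0.17 for the proximal tubule, -0.12 for podocytes, -0.11 for the thick ascending limb, -0.27 for endothelium and -0.43 for the cell cycle. In that fit, which called 1.32% of all genes, Podxl, Hnf4a, Sgms2 and Plvap of the kidney lists were called lower. Cyp11a1 and Hsd3b1, of the adrenal list, were called higher. Within the endothelium list the members of smallest p were both lower, Kdr, a receptor of VEGF, at 129 to 161 CPM in the Flcn controls and 97.8 to 129 CPM in the Flcn/Tfeb controls, and Ehd3, a protein of glomerular endothelium, at 87.4 to 152 CPM and 55.3 to 96.3 CPM. Their log2 differences were -0.41 and -0.55 (edgeR adjusted p = 0.68 for each).

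Eya1, a transcription cofactor that nephron progenitors need, was at 12.5, 12.5, 10.9, 12.9 and 11.6 CPM in the Flcn controls and at 18.7, 16.1 and 18.5 CPM in the Flcn/Tfeb controls. The groups of Eya1 did not overlap, the log2 difference was 0.55 (SE 0.21, edgeR adjusted p = 0.68), and it was 1.47 in the mutants (edgeR adjusted p = 0.0023). Gas1, of the same list, was at 54.5 to 101 CPM against 46.2 to 56.1 CPM, so that the list had no single direction. Acsm2, an acyl-CoA synthetase of the proximal tubule, was at 173, 205, 256, 238 and 173 CPM against 128, 96.7 and 172 CPM, and Ppargc1a, a coactivator of mitochondrial genes, at 86.4 to 104 CPM against 57.3 to 84.8 CPM. Both were lower in every Flcn/Tfeb control, and in both Flcn/Tfeb control 3 was the nearest to the Flcn controls. Pck1 and Fbp1, also of the proximal tubule list, went the other way, with overlap. Their means were 157 and 201 CPM in the Flcn controls and 210 and 279 CPM in the Flcn/Tfeb controls. The log2 differences were 0.42 and 0.47 (edgeR adjusted p = 0.71 and 0.74), and 10 of 25 genes of that list were above 0.

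On the 2 sides of 7% several kidney lists had medians of opposite sign. Above it the proximal tubule list had a median of -0.28 with 6 of 25 above 0, and 5 genes were called lower (Acsm2, Hnf4a, Slc13a3, Slc22a6 and Slc22a8) where 2.38% of all genes were. Below it the median was 0.19 with 21 of 25 above 0. The principal cell list had medians of -0.21 and 0.33, the thick ascending limb list -0.17 and 0.38 and the lysosome list -0.08 and 0.24, in that order. Over all genes the medians were -0.003 and 0.036. Myeloid genes had -0.13 and -0.12 and stroma -0.03 and 0.01.

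Lists of genes that respond to handling and feeding also differed by library. Over all 8 libraries immediate early genes, which are transcribed within minutes of a stimulus, were above 0 in 4 of 15 with a median of -0.23, heat shock and chaperone genes in 8 of 20 with -0.08, clock genes in 10 of 14 with 0.11, genes of fasting and glucocorticoid response in 12 of 21 with 0.07, and genes of glycolysis and hypoxia in 14 of 26 with 0.02. Without Flcn/Tfeb control 3 these medians were -0.31, -0.28, 0.24, -0.31 and -0.29. The fasting and glucocorticoid score was -0.39, -0.36 and 0.47 in Flcn/Tfeb controls 1 to 3, against an SD of 0.05 among the Flcn controls. Junb, an immediate early transcription factor, was at 8.37 to 11.6 CPM in the Flcn controls and at 4.81, 5.97 and 7.66 CPM in the Flcn/Tfeb controls, without overlap, and its log2 difference was -0.63 (SE 0.29, edgeR adjusted p = 0.7) and 0.34 in the mutants. Cirbp, an RNA-binding protein induced by cold that is on none of these lists and was chosen after its values were seen, was at 59.4, 59, 70.2, 78.6 and 77.6 CPM against 103, 138 and 97.8 CPM. The Flcn/Tfeb controls were all higher in Cirbp, with a log2 difference of 0.71 (SE 0.18, edgeR adjusted p = 0.68), and in the mutants it was 0.46 (edgeR adjusted p = 0.026). Pfkp and Hk2, enzymes of early glycolysis, were at 23.7 to 28.3 against 32.4 to 38.8 CPM and at 5.11 to 11.4 against 10 to 19.3 CPM, the second with overlap.

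Gapdh and Actb, which are often used as reference genes, differed by library, and they were chosen after their values were seen. On library totals Gapdh was at 39, 38.3, 44.8, 69.3 and 64.7 CPM in the Flcn controls and at 19.1, 18 and 119 CPM in the Flcn/Tfeb controls. Flcn/Tfeb controls 1 and 2 were below and Flcn/Tfeb control 3 above every Flcn control. Among the 5 libraries above 7% the log2 difference of Gapdh was -1.05 (SE 0.22, edgeR adjusted p = 0.008), among the other 3 it was 0.77, and in the mutants -0.83 (edgeR adjusted p = 0.0041). Actb, a cytoskeletal actin, was at 4870, 4960, 5330, 7550 and 9060 CPM against 3000, 3480 and 6510 CPM, lower in the Flcn/Tfeb controls on both sides of 7%, with log2 differences of -0.56, -0.39 and, in the mutants, -0.61. Gapdh has many near-identical copies in the mouse genome, so reads can be shared or set aside as mapping to several places.

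The genes that the crosses were made for did not differ beyond the spread. Flcn was at 12.1, 16.7, 12.5, 16.7 and 12.8 CPM in the Flcn controls and at 12, 10.7 and 16.5 CPM in the Flcn/Tfeb controls, a log2 difference of -0.09 (SE 0.25, edgeR adjusted p = 0.95). Tfeb was at 15.9, 14.9, 10.9, 13.1 and 11 CPM against 9.63, 7.16 and 20 CPM. The Flcn/Tfeb controls enclosed the Flcn controls in Tfeb, with means of 13.2 ± 2.26 (SD, n = 5) and 12.3 ± 6.82 CPM (SD, n = 3) and a log2 difference of -0.04 (SE 0.33, edgeR adjusted p = 0.99). The value of Tfeb was -0.74 among the 5 libraries above 7%, and no alternative called it. Tfe3 was at 27.4 to 40.4 against 30.3 to 44.5 CPM and Cdh16, whose promoter drives the Cre, at 264 to 344 against 200 to 359 CPM. The 24 tested genes of the folliculin and MiT/TFE pathway had a median of -0.01 with 12 above 0, and the 47 lysosomal genes a median of 0.03 with 25 above 0. Rheb, the GTPase that activates mTORC1, was the pathway member without overlap, where 5.65% of all genes did not overlap. It was at 35.1 to 42 against 43.6 to 57.4 CPM (log2 difference 0.41, edgeR adjusted p = 0.68).

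Genes beside Tfeb on chromosome 17 were read separately, with distances chosen after values were seen. Within 2 Mb of Tfeb 8 of 46 tested genes had an unadjusted p under 0.05 (17.4%), 5 of them higher and 3 lower. Within 5 Mb 10 of 72 did (13.9%) and within 10 Mb 14 of 118 (11.9%), against 7.8% of the whole chromosome and 7.31% of all genes. By edgeR's test over all 8 libraries 0 were called. Of those within 2 Mb, Srf, Ppp2r5d, Mrps10 and Ccnd3 had the same sign in the mutants. Mrps18a, Mrpl2, Rpl7l1 and Mdfi had the opposite sign there. Ccnd3, whose annotated start lies at -0.23 Mb from that of Tfeb, was at 244, 228, 230, 270 and 280 CPM in the Flcn controls and at 132, 153 and 193 CPM in the Flcn/Tfeb controls. The groups of Ccnd3 did not overlap, with a log2 difference of -0.65 (SE 0.18, edgeR adjusted p = 0.68) and of -0.51 in the mutants (edgeR adjusted p = 0.003). Mrpl2, a protein of the mitochondrial ribosome, was at 58.4 to 72.9 CPM against 95.5 to 98.7 CPM, and in the mutants its difference was -0.07.

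Some genes differed widely in level between single control kidneys. Counting genes at 25 CPM or more in 1 control library and at 1/10 of that or less in another gave 75 genes. Of these 9 are on the liver list, 7 on the skeletal muscle, 4 on the sex-linked and 3 on the adrenal list, 46 are on no list, among them further genes of liver such as Serpina3k and Apoc3, and 45 met the same rule among the mutants. The rule needs no absence, since Rpl34 and Meg3 met it with lowest levels of 125 and 48.1 CPM. The genes of this account were chosen after their values were seen, and levels are given on library totals. Xist, the RNA of the inactive X chromosome, was at 497 CPM in Flcn control 4, at 2150 and 290 CPM in Flcn/Tfeb controls 2 and 3, and at 0.546 CPM or less in the other 5. Ddx3y, a gene of the Y chromosome, was at 0 in those 3 kidneys and at 86.6 to 105 CPM in the other 5. Xist without Ddx3y was thus found in 1 of 5 Flcn controls and 2 of 3 Flcn/Tfeb controls. With the level of Xist as a covariate, edgeR's test called 0 genes between the crosses, with 937 at an unadjusted p under 0.05.

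Adrenal genes were present in Flcn/Tfeb control 2. Cyp21a1, an enzyme of corticosteroid synthesis, was at 83.6 CPM there and at 0.546 CPM or less in the other 7 controls. Hsd3b1, of the same pathway, was at 7.09, 30.2 and 0 CPM in Flcn/Tfeb controls 1 to 3 and at 0.88 CPM or less in the Flcn controls, and the chromaffin genes Chgb and Chga were at 25.4 and 13.2 CPM in Flcn/Tfeb control 2. The 16 adrenal genes summed to 69.9 to 85.1 CPM in the Flcn controls and to 128, 359 and 69.2 CPM in the Flcn/Tfeb controls. Cst12 and Cst9, cystatins of the reproductive tract, were at 147 and 42.6 CPM in Flcn/Tfeb control 1 alone, and the gonad and duct list, with Inha and Inhba at 22.4 and 22.9 CPM, was highest in the same library. Amh, the hormone of Sertoli cells on that list, was at 0 in all 8. Of 3 adrenal genes that passed the filter (Akr1b7, Fdx1 and Scarb1, detected in every control) 2 were above 0, and of 4 gonad and duct genes 4 were. Their part in the differences between crosses was not tested.

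Liver genes were detected in every control library. Alb, the serum albumin, was at 77, 497, 192, 38.7 and 204 CPM in the Flcn controls and at 250, 28.1 and 382 CPM in the Flcn/Tfeb controls, and the summed liver list at 232 to 1720 against 195 to 1270 CPM. Above 7% all 12 tested liver genes were lower in the Flcn/Tfeb controls, with a median of -1.22 by means of log2(CPM + 0.5), and below 7% all 12 were higher, with a median of 1.84. The value above 7% rested on Flcn/Tfeb control 2, which had a liver score of -2.03. Flcn/Tfeb control 1 was at 0.19, within the range of Flcn controls 1 to 3 (-0.74, 1.28 and 0.48). Skeletal muscle genes stood out in Flcn control 1, where Mylpf, a light chain of fast myosin, was at 60.7 CPM against 0.647 to 6.16 CPM in the other Flcn controls and 11.5, 1.59 and 2.67 CPM in the Flcn/Tfeb controls. Red blood cell genes summed to 3750 to 9130 CPM against 3750 to 6440 CPM.

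Further genes differed widely by library. Akr1cl, of the aldo-keto reductase family, was at 0 in all 5 Flcn controls and at 28.4, 16.9 and 0 CPM in Flcn/Tfeb controls 1 to 3. It was at 13.7, 3.03, 0 and 0 CPM in Flcn/Tfeb DKO 1 to 4 and at 0.354 CPM or less in the Flcn KO libraries, and at 0 to 21.7 CPM in the 8 controls of the Flcn/Tfe3 cross. Cyp4a31, of a family of fatty acid hydroxylases with near-identical copies, was at 44.4 to 59.6 CPM in the Flcn controls and at 1.64, 32.3 and 48.8 CPM in the Flcn/Tfeb controls. In the mutants it was at 38.3 to 43.8 CPM in Flcn KO and at 2.42 to 3.14 CPM in Flcn/Tfeb DKO, so that Flcn/Tfeb control 1 was at the level of the DKO libraries. Reads of such copies can be split between them.

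Ubb, a polyubiquitin gene, was at 299, 23.8, 35.3, 403 and 407 CPM in the Flcn controls and at 20.7, 19.6 and 52.1 CPM in the Flcn/Tfeb controls. Among these 8 controls it was high in 3 Flcn controls, with levels of 14.5 to 41.4 CPM in all 9 mutants and of 35.6 to 403 CPM (median 266 CPM) in the 8 controls of the Flcn/Tfe3 cross. In the 2 sets of the Flcn/Tfe3 controls the medians of Ubb were 61.4 and 295 CPM. Rpl34 was at 1570, 286 and 125 CPM in Flcn/Tfeb controls 1 to 3 and at 377 to 1310 CPM in the Flcn controls, against the direction of most other ribosomal protein genes in Flcn/Tfeb control 2. Gm10036, a processed pseudogene, was at 528, 0.44, 393, 1.12 and 1.62 CPM in the Flcn controls and at 0.546, 2.12 and 0 CPM in the Flcn/Tfeb controls. Among these 8 controls it was on in Flcn controls 1 and 3, the libraries in which Rpl11 was lowest on the same scale (877 and 709 CPM, against 1080 to 1680 CPM in the other 6). It was also on in Flcn KO 1, 2 and 4, at 413, 439 and 434 CPM, where Rpl11 was at 732, 711 and 802 CPM, and it reached 576 CPM in the Flcn/Tfe3 controls. Gm47283, a transcript annotated on the Y chromosome, was at 346 CPM in Flcn/Tfeb control 2, in which Ddx3y was at 0, and at 33.4 to 96.6 CPM in the other controls.

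**Figure D5:**
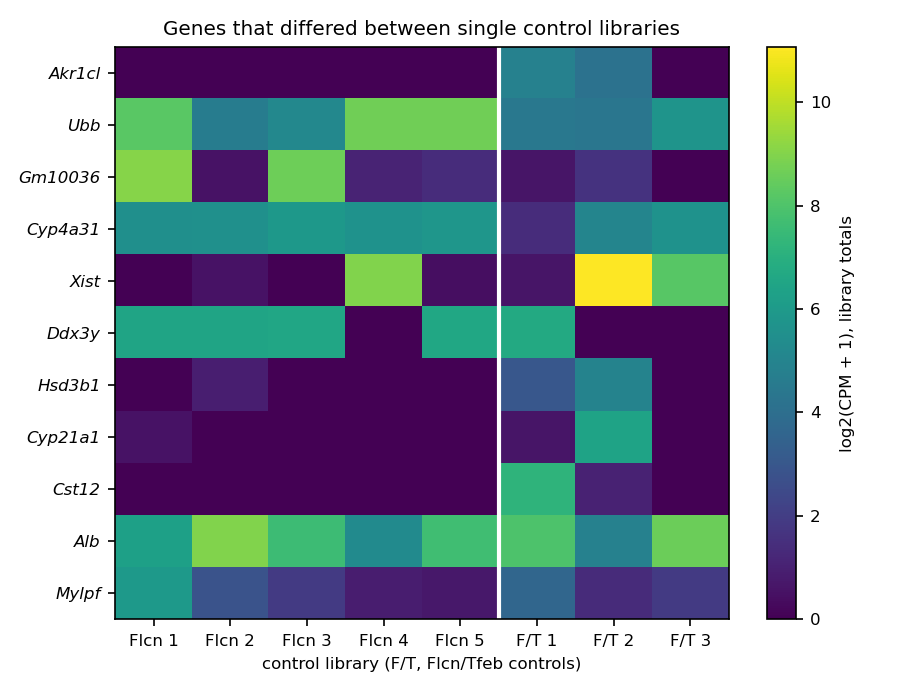
Levels of 11 genes in the 8 control libraries (columns, Flcn controls 1 to 5 then Flcn/Tfeb controls 1 to 3), coloured by log2(CPM + 1) on library totals. Cyp21a1 is bright in Flcn/Tfeb control 2, Cst12 in Flcn/Tfeb control 1 and Mylpf in Flcn control 1, and Xist and Ddx3y exclude each other.

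Genes that leaned to one side in the controls were then read in the mutants as a whole. Of 465 genes with an unadjusted p under 0.05 and higher in the Flcn/Tfeb controls, 81.1% were also higher in the Flcn/Tfeb DKO than in the Flcn KO libraries and 21.3% were called there in the same direction. Of 414 lower genes 86.2% had the same sign and 30.9% were called in it. For all 11944 genes tested in both, these shares were 65.1% and 13.3%. The mutant comparison called 1914 of 12310 genes (15.5%) by edgeR's test. Without Flcn KO 5 it called 1242, without Flcn/Tfeb DKO 3 it called 1252 and without Flcn/Tfeb DKO 4 it called 1218. The mitochondrial share was 7.33% to 11.1% in Flcn KO and 10.4% to 11.9% in Flcn/Tfeb DKO, and with this share as a covariate, an alternative chosen after the data were seen, the count was 113.

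Whether the difference between crosses itself differed between control and mutant kidneys was tested as an interaction over all 17 libraries. Of 13049 genes 2 were called (0.0153%), 776 had an unadjusted p under 0.05 (5.95%), and without Flcn/Tfeb DKO 4 the count was 0. Slc16a7, a transporter of lactate and pyruvate, was on library totals at 26.9 to 44.9 CPM in the Flcn controls and at 30.6, 25.9 and 45.5 CPM in the Flcn/Tfeb controls, whereas it was at 74.7 to 103 CPM in Flcn KO and 17.6 to 28.4 CPM in Flcn/Tfeb DKO. Its log2 difference between crosses was -0.09 in controls and -1.79 in mutants, and the interaction -1.72 (SE 0.25, edgeR adjusted p = 0.009). Sostdc1, a secreted antagonist of BMP and Wnt signals, had a difference of 0 in controls and -1.1 in mutants, and an interaction of -1.11 (SE 0.17, edgeR adjusted p = 0.009). For none of the 20 genes named above was the interaction called, with an unadjusted p under 0.05 in 8 of the 10 higher and 3 of the 10 lower genes, and it uses the same control values that chose them.

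The difference between crosses was also read by transcript length. In 5 classes of about equal size by the length of the longest annotated transcript, from the shortest to the longest, the median log2 difference between controls was 0.19, 0.07, 0.02, -0.01 and -0.07. Among genes of the shortest class (168 to 1993 bases) 71.9% were above 0, and among those of the longest 39.5%. Below 7% the medians were 0.19, 0.13, 0.06, -0.01 and -0.16, in the same falling order. Above 7% they were 0.12, 0, -0.04, -0.03 and -0.03, and in the mutants 0.11, -0.03, -0.04, -0.03 and 0, so that in both the shortest class stood apart and the other 4 had no falling order. Across 12075 genes, which are not independent of one another, the Spearman correlation of length and difference was -0.25 in controls, and it was -0.07 in the mutants.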

How the data were processed

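Kidney RNA was sequenced as QuantSeq 3′ mRNA libraries. Per the study's methods, the authors used bbduk for trimming, STAR for alignment and HTSeq-count for tallying reads by gene, whereas the submitters' processing notes name Trim Galore, STAR and mm10, so the sources differ on the trimming tool. Whether the counting used strand is not given in the sources used here. The deposited counts are whole and not normalized and cover 31053 genes, of which 30934 were matched to a symbol and 99.9% to GENCODE M21. The 5 tally lines of each library (no gene, several places and the like) were left out of library sizes and tests.

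Control libraries (5 against 3) were compared with edgeR 4.0.16 in R 4.3.3, by filterByExpr, TMM and the two-sided quasi-likelihood F test with Benjamini-Hochberg adjustment over all genes tested, and genes were called at an adjusted p under 0.05. CPM are on TMM-scaled library sizes or, where stated, on library totals. List medians on either side of 7% mitochondrial share, and differences of single genes below it, are of mean log2(CPM + 0.5), whereas differences and calls of single genes above it are fitted by edgeR. The mutants (5 against 4) and the interaction over 17 libraries were fitted the same way. Library measures were compared by exact permutation. Named genes are Flcn, Tfeb, Tfe3, Cdh16, Xist and Y-linked genes, the 10 genes per direction of smallest p without overlap and, in their higher group, with 10 or more counts on average (none being called), and up to 4 members of smallest p per list. The libraries, the genes and the 34 hand-compiled lists were chosen with earlier results of these data known. The gene tests were first tested on simulated data with 2-fold changes. The control comparison called 42 of 195 changed genes that were tested (21%), and 4 unchanged genes. The mutant comparison called 144 of 196 (72%), and 9 unchanged genes. Pairs of libraries within a control group had a chi-square per degree of freedom of 2.71 to 39.1 over 13 pairs, so none was treated as a duplicate. Alternatives were RLE and upper quartile factors, DESeq2 1.42.0, the likelihood ratio test, other filters, a threshold of 0.1, covariates, a replicate block, other choices of libraries and genes, and the omission of single libraries. The fits on the 5 libraries above 7% mitochondrial share, with that division as a term, with the share of reads on no gene as a covariate, the mitochondrial covariate in the mutants and the alternatives of the interaction were chosen after the data were seen.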

Additional observations from a re-analysis of the deposited data

Results flagged for a closer look

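Given here are 3 cases in which 1 of the 5 Flcn controls lay far from the other 4. The measure was the gap between the outermost library and its neighbour relative to the whole range. The 3 are not a full count, since other named genes had such a gap too. Mylpf was at 64.7 CPM in Flcn control 1 and at 0.595 to 6.51 CPM in the others. Ddx3y was at 0 in Flcn control 4 and at 88.9 to 96.9 CPM in the others. Chance marks about 1 in 20 such groups, and the number of groups screened is not given here. Frrs1 was at 84.1 CPM in Flcn control 4, below the 112 to 122 CPM of the others and above all 3 Flcn/Tfeb controls. Xist was at 447 CPM in Flcn control 4 on TMM-scaled library sizes and near 0 in the others. The skeletal muscle score was 2.33 in Flcn control 1 and -0.32 or less in the others.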

How the results depend on the processing

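The count of 0 genes between the controls was the same with RLE and upper quartile factors, without a filter, with a filter at a mean of 10 counts, at a threshold of 0.1, with Xist as a covariate and without mitochondrial, haemoglobin and sex-linked genes. DESeq2 called 21 (5 higher, 16 lower), the likelihood ratio test 6 (2 and 4), the mitochondrial share as a covariate 16 (10 and 6) and the fit of all 17 libraries 7 (2 and 5). Of the alternatives chosen after the data were seen, the share of reads on no gene as a covariate gave 37 (13 and 24), the 7% division as a term 27 (11 and 16) and the 5 libraries above 7% alone 582 (302 and 280). Leaving out each control library gave 0 to 162 genes (0 to 89 higher, 0 to 73 lower), and the 162 came without Flcn/Tfeb control 3. The cause was not tested.

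With the replicate number as a block (replicates 1 to 3 of each cross, 6 libraries) the count was 0, and 330 genes reached an unadjusted p of 0.05, against 0 and 381 in the same libraries unblocked. Deviations of same-numbered control libraries correlated at 0.07, -0.02 and 0.16, so the numbers did not pair the samples. In the mutants the block gave 1004 genes and the mitochondrial covariate 113, and leaving out each library gave 1218 to 2100. The interaction count was 0 to 3 when each library was left out, and 0 without Flcn/Tfeb DKO 4.

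All 20 genes of smallest p kept their sign in all 450 values under the alternatives, which follows in part from the choice of genes without overlap, and 79 of these values were called. Serpina3k, a serpin made by the liver, turned from 0.84 to -7.65 in the 5 libraries above 7%, a fitted value and no measure of size, since both Flcn/Tfeb controls there are at 0 counts. The fitted median of the liver list ranged from -1.13 (only libraries above 7%) to 1.02 (Xist as a covariate). The median of the ribosomal protein list ranged from 0.02 (replicate block) to 0.65 (without Flcn/Tfeb control 3). Depth limits single genes: a count of 0 allows up to 1.64 CPM in the shallowest control.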
